A study of Mus musculus with 13 samples.

Results

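The mitochondrial genome of the mouse encodes a small set of respiratory chain subunits, and 10 of their mRNAs are described here in melanoma cells recovered from lung metastases. They were chosen by name: mt-Nd1, mt-Nd2, mt-Nd4, mt-Nd5 and mt-Nd6 of complex I, mt-Cytb of complex III, mt-Co1, mt-Co2 and mt-Co3 of complex IV, and mt-Atp6 of complex V. Of the 10, 7 had values among 22656 gene rows, and the levels of mt-Co2, mt-Co3 and mt-Atp6 were not analysed here, so that these 3 are described by sequence only. No member of complex V is therefore described by value, and complex IV is described by mt-Co1 alone.

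The cells were B16F10-TR-shApoe, a line derived from the mouse melanoma B16F10 that carries a hairpin against mouse Apoe in both groups. They had been injected into the tail vein of knock-in mice whose own Apoe gene is replaced by a human allele, APOE2 for 8 libraries and APOE3 for 5. Lungs were digested with collagenase on day 15, and tumour cells were sorted as living (TO-PRO-3 low), CD45- and GFP+. Age and sex of the hosts are not given in the sources used here, and no line without the hairpin was analysed here. The comparison is therefore between host genotypes for 1 and the same tumour line. The numbers of libraries equal the numbers of mice in the submitters' design text, and each library was taken as 1 mouse.

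The respiratory chain passes electrons from NADH and succinate to oxygen through complexes I to IV, pumps protons across the inner mitochondrial membrane, and complex V uses the proton gradient to make ATP. Complexes I, III, IV and V are built jointly: a core of very hydrophobic subunits is translated inside mitochondria from the mitochondrial genome, and the remaining subunits are nuclear genes whose products are imported. Complex II is nuclear only. Both strands of the mitochondrial genome are transcribed as long RNAs from which the tRNAs are cut out, so that most mRNAs are released together and differ in level mainly after transcription. Most of the mRNAs receive a short poly(A) tail, which in several of them completes a stop codon that the genome leaves unfinished. The mRNA of mt-Nd6, from the other strand, is known as the exception that largely lacks a tail.

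The libraries read the end of polyadenylated RNA next to the tail, so the ends of the members matter for their values. The reads were not located along the members, and the annotated end of an mRNA need not be where its tail begins. The last 60 bases of each of the 7 mRNAs are shown as annotated, 5′ to 3′ in the sense of the mRNA, with the encoded letters of the stop codon in capitals (GENCODE M21 on GRCm38, the same coordinates as mm10).
mt-Nd1: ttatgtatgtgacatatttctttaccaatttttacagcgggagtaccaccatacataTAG
mt-Nd2: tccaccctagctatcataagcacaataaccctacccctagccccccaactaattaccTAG
mt-Co1: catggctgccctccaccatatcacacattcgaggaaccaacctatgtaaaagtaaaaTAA
mt-Nd4: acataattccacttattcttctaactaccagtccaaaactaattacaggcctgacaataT
mt-Nd5: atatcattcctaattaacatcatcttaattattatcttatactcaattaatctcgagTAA
mt-Nd6: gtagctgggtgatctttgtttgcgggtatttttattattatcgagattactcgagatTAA
mt-Cytb: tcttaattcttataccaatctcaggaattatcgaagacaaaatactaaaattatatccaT
As annotated, mt-Nd4 and mt-Cytb end in a lone T and need the tail to complete the stop codon. The other 5 carry it whole in the annotation. However, the last letters of mt-Nd1 and mt-Nd2 overlap the same-strand tRNAs mt-Ti (chrM:3706-3774) and mt-Tw (chrM:4950-5016). Cutting out these tRNAs could leave a lone T there too, and the ends of the mRNAs in these cells were not tested. Each member is a single exon with no intron and no annotated UTR. On the forward strand lie mt-Nd1 (chrM:2751-3707), mt-Nd2 (chrM:3914-4951), mt-Co1 (chrM:5328-6872), mt-Nd4 (chrM:10167-11544), mt-Nd5 (chrM:11742-13565) and mt-Cytb (chrM:14145-15288). mt-Nd6 (chrM:13552-14070) is the only member encoded on the reverse strand.

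The strand shows in its composition. The mRNA of mt-Nd6 held 28.1% G and 5.97% C, against 8.00% G in mt-Nd2 and 16.1% G in mt-Co1, the lowest and highest of the other 6 members with values. Its 3′ end also runs into that of mt-Nd5 on the opposite strand. The last 30 bases of both are printed with the 14 bases they share, as reverse complements, in capitals.
mt-Nd5: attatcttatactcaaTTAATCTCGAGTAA
mt-Nd6: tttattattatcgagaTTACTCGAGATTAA
Whether reads were counted by strand is not given in the sources used here. Reads in that overlap therefore cannot be told apart between mt-Nd5 and mt-Nd6. Any reads of mt-Nd5 just beyond its annotated end would likewise fall within mt-Nd6.

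Several members have near-identical copies in the nuclear genome, which matters for a short read. Over windows of 50 bases, every window of mt-Co2 (100%), 99.9% of those of mt-Co3 and 99.5% of those of mt-Atp6 were identical to some other annotated transcript. The copies Gm28661, Gm10925 and Gm28437, annotated as unprocessed pseudogenes, lie next to each other at chr1:24614885-24615565, chr1:24613974-24614651 and chr1:24613189-24613971. Among the members with values, mt-Co1 shared 51.1% of its windows, and its last 479 bases were wholly contained in shared windows, mainly with Gm29216 (chr1:24615706-24616197). The first 876 bases of mt-Nd4 were shared with Gm28439 (chr1:24611535-24612410), whereas its last 502 bases, on the side of the tail, had no such match. mt-Nd2 shared 8.19% and mt-Nd5 7.61% of windows, and mt-Nd1, mt-Nd6 and mt-Cytb shared 0%. The value of mt-Co1 is thus uncertain, because reads from its end could equally be placed on Gm29216. That copy itself held 20 reads summed over the 13 libraries. Only annotated transcripts were searched, not the whole genome.

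**Figure D1:**
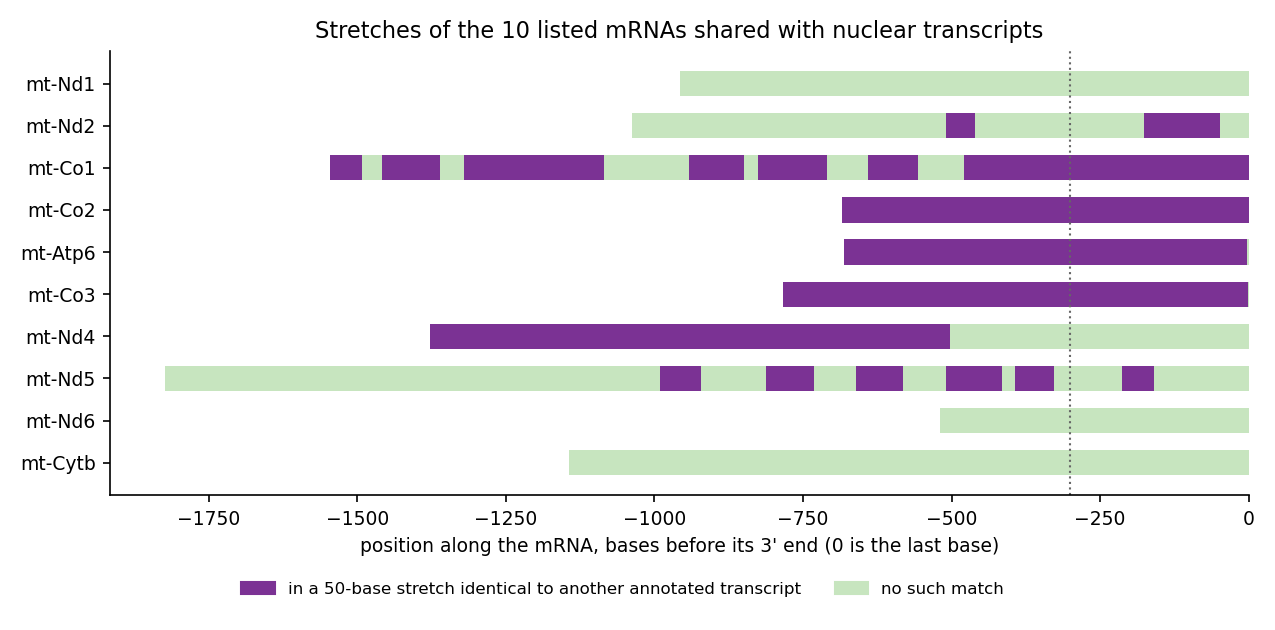
Map of the 10 listed mRNAs aligned at their 3′ ends (x axis, bases before the last base), with stretches lying in a 50-base window identical to another annotated transcript in purple and the rest in green; the dotted line marks 300 bases from the end. mt-Co2, mt-Atp6 and mt-Co3 are purple almost throughout, mt-Co1 is purple over its last 479 bases, and the last 502 bases of mt-Nd4 are green.

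Read totals ranged from 7080308 to 13039989 per library. The sorted cells expressed melanocyte genes: the 11 listed markers summed to between 36582 and 52410 CPM (reads of the gene in every 1000000 reads) in APOE2 and between 27388 and 38968 in APOE3. Apoe, the target of the hairpin, had 1730.1 ± 375 normalised counts in APOE2 (SD, n = 8) and 1845 ± 441 in APOE3 (SD, n = 5), a log2 difference of -0.09 with an adjusted p of 0.852 in limma. A pair of APOE3 libraries, replicates 2 and 3, stood apart in Gm42418, a transcript that overlaps ribosomal RNA sequence and is often read as a trace of it. It took 3.74% and 3.03% of their reads, against 1.11% to 1.26% in the other 3 APOE3 libraries and 0.662% to 2.17% in APOE2. The log2 difference of a member is therefore also given without those libraries where leaving them out moves it by over 1.5 times.

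The 7 mRNAs were abundant and spanned a wide range of levels. Per kilobase of mRNA, and over all 13 libraries, mt-Cytb was highest with 91728 ± 11668 normalised counts (SD, n = 13). mt-Nd1 with 72144 ± 11201, mt-Nd2 with 69323 ± 14771 and mt-Nd4 with 49226 ± 12507 per kilobase came next, and each of these 4 overlapped its neighbour in the range over libraries. mt-Nd5 with 5529 ± 557 and mt-Co1 with 5411 ± 766 lay about an order of magnitude lower and overlapped widely. Reads from the end of mt-Co1 could equally be placed on a nuclear copy. Any reads of mt-Nd5 beyond its annotated end would fall within mt-Nd6. The part of this in their low values was not tested. mt-Nd6 was lowest with 1175 ± 336, from 733 to 1738, below every value of the other 6; since these libraries start at the tail, its level is not comparable with theirs. A library of transcript ends yields reads per molecule and not per length, and without the division by length mt-Nd1, mt-Nd2 and mt-Nd4 lay closer together. Their order then differed between the groups. The highest mean of these 3 was that of mt-Nd2 in APOE2, with 73916 normalised counts, and that of mt-Nd4 in APOE3, with 84536. The members' median coefficient of variation was 10.1% in APOE2 and 17.0% in APOE3, against 12.6% and 15.7% for the 81 nuclear genes of complexes I to V. Counting error alone would give between 0.304% for mt-Cytb and 3.99% for mt-Nd6.

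None of the 7 members passed the test between host genotypes. limma called 98 of 12403 genes at an adjusted p under 0.05, or 0.79% of those tested, with 51 higher (0.411%) and 47 lower (0.379%) in APOE2; the count ran from 9 (without APOE3 replicate 3) to 228 (without APOE3 replicate 1) when each library was left out. At an unadjusted p under 0.05 there were 3 of 7 members and 14.2% of all genes tested. The members' log2 differences, APOE2 minus APOE3 and on the scale of log2(normalised count + 1), ran from -0.54 for mt-Nd4 to 0.42 for mt-Nd6, with 5 below and 2 above 0 and a median of -0.11. The median over all genes tested was 0.000365. For none of the 7 did the normalised counts of the groups separate fully. Of all genes tested only 0.984% did, so 0 of 7 does not set the members apart.

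mt-Nd4, a proton-pumping core subunit of complex I, had the largest difference of the 7. Its normalised counts in APOE2 had a lowest value of 52237, a median of 54752 and a highest of 69064.5. In APOE3, replicates 1 to 5 had 78115, 96643, 105343, 78055 and 64523. All but 1 of the APOE2 libraries lay below the lowest APOE3 library, and 4 of 5 APOE3 libraries lay above the highest APOE2 library, with APOE3 replicate 5 and the highest APOE2 library making up the overlap. Means were 57395 ± 5786 (SD, n = 8) and 84536 ± 16304 (SD, n = 5), a fold of 0.686. The log2 difference of -0.54 (SE 0.14) had an adjusted p of 0.0646 in limma, and mt-Nd4 ranked 126 of 12403 by p. The call turned with the test: the adjusted p was 0.0153 with edgeR and 0.000551 with DESeq2 on recovered reads, 0.0416 without APOE3 replicate 5, and it ranged from 0.000551 to 0.625 over all alternatives run. APOE3 replicates 2 and 3, which stood apart in Gm42418, were also the highest in mt-Nd4, and without them the log2 difference was -0.36 with a limma adjusted p of 0.262.

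mt-Nd1 lies at the junction between the membrane arm and the peripheral arm of complex I. In APOE2 its normalised counts had a lowest value of 56545, a median of 63694 and a highest of 72466. In APOE3 they were 79783, 75998, 92693.5, 80500.5 and 60722 in replicates 1 to 5. Here too replicates 1 to 4 of APOE3 exceeded every APOE2 library, and replicate 5 fell within the APOE2 range. The log2 difference was -0.29 (SE 0.13), and its limma adjusted p of 0.327 did not pass.

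mt-Nd2, another antiporter-like subunit of the membrane arm, differed little on average and was the most variable member in APOE3. Its APOE2 libraries had a lowest value of 57343, a median of 74934 and a highest of 83228 normalised counts. The APOE3 libraries had 54635, 108314, 64647, 69281 and 47245, so that replicate 2 lay above and replicates 1 and 5 lay below the whole APOE2 range. The log2 difference was 0.15 (SE 0.17), and limma gave an adjusted p of 0.717. The size of the difference rested on single APOE3 libraries: it was 0.33 without replicate 2, 0.09 without replicate 1, 0.03 without replicate 5 and 0.38 without replicates 2 and 3. Its sign is opposite to that of its upstream neighbour mt-Nd1 on the same strand.

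mt-Nd5, the largest of the proton-pumping subunits, had a lowest value of 8837, a median of 9830.05 and a highest of 11027 normalised counts in APOE2. The APOE3 libraries had 10915, 11379, 11353, 10839.9 and 8418. The groups overlapped widely and APOE3 replicate 5 was the lowest of all 13. The log2 difference was -0.11 (SE 0.10), and limma gave an adjusted p of 0.677. It was -0.19 without APOE3 replicate 5 and -0.03 without APOE3 replicates 2 and 3.

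mt-Nd6, the member on the opposite strand, had the fewest reads and the largest positive difference. Its APOE2 libraries had a lowest value of 453, a median of 704 and a highest of 902 normalised counts. The APOE3 libraries had 509, 516, 613, 466 and 381. Among the APOE2 values, 5 of 8 libraries lay above the highest APOE3 library, and the other 3 lay within the APOE3 range. Means were 680.3 ± 183 (SD, n = 8) and 497 ± 84.4 (SD, n = 5), a fold of 1.34. The log2 difference of 0.42 (SE 0.17) had a limma adjusted p of 0.277.

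mt-Cytb encodes cytochrome b, the subunit of complex III that carries both quinone sites. Its APOE2 libraries had a lowest value of 90785.5, a median of 100189 and a highest of 116003 normalised counts. The APOE3 libraries had 112112, 93225, 138311, 116802 and 90060.1. The APOE3 libraries spanned the whole APOE2 range and beyond, and the log2 difference of -0.10 (SE 0.14) had a limma adjusted p of 0.797. That difference was -0.16 without APOE3 replicate 2, -0.01 without replicate 3, -0.17 without replicate 5 and -0.06 without replicates 2 and 3.

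mt-Co1 encodes the catalytic subunit of cytochrome c oxidase, complex IV. Its APOE2 libraries had a lowest value of 6277, a median of 7795 and a highest of 8937 normalised counts. The APOE3 libraries had 9670.1, 8376, 10618, 9627 and 7144. Replicates 1, 3 and 4 of APOE3 lay above every APOE2 library, and the log2 difference of -0.20 (SE 0.11) had a limma adjusted p of 0.444.

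**Figure D2:**
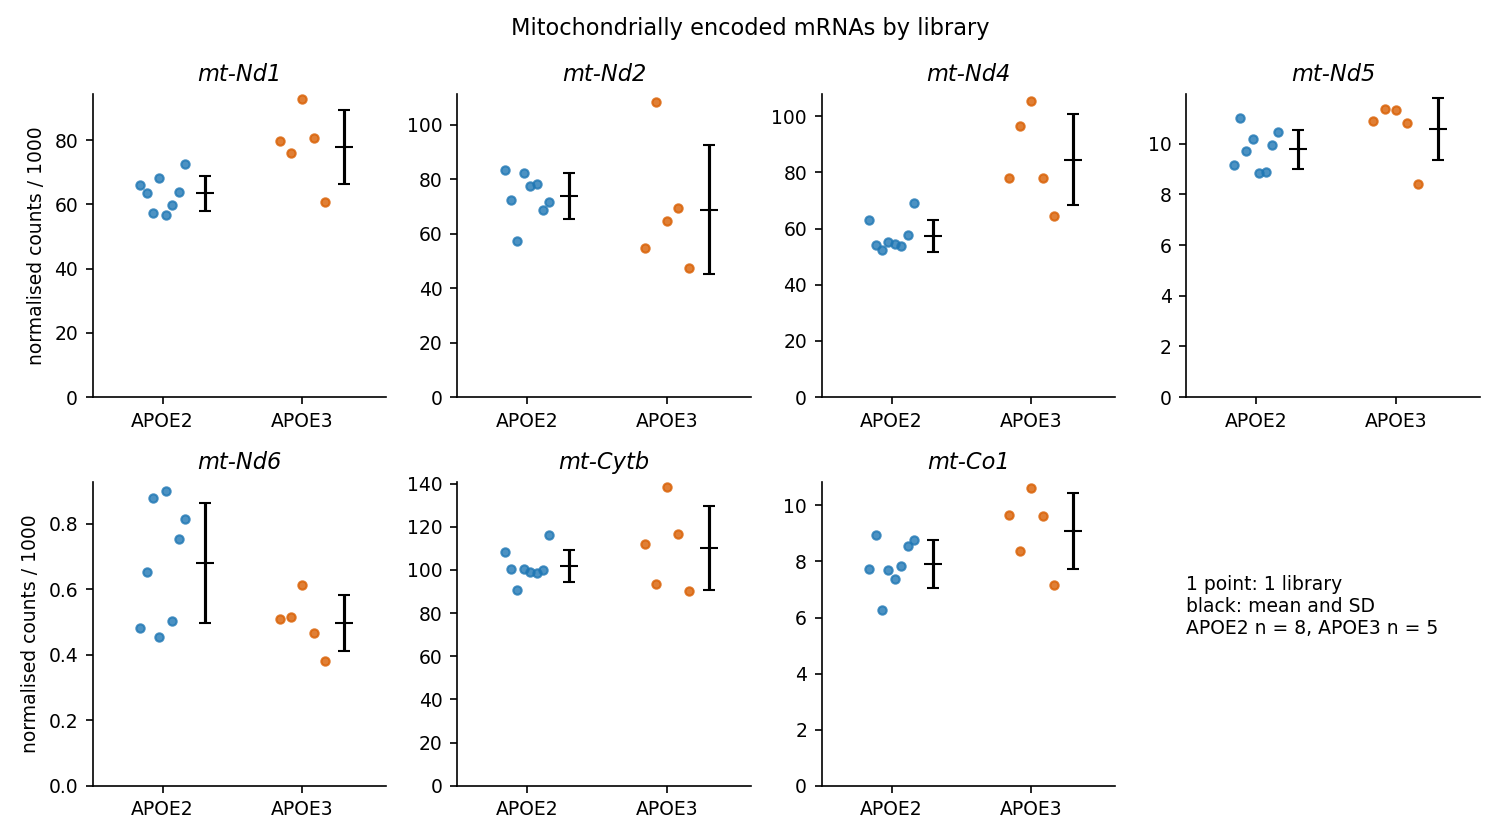
Normalised counts (in units of 1000, axes from 0) of the 7 mitochondrially encoded mRNAs, 1 point per library, with mean and SD in black for APOE2 (n = 8) and APOE3 (n = 5) hosts. In mt-Nd4 all but 1 of the APOE2 points lie below the lowest APOE3 point at 64523, in mt-Nd2 a lone APOE3 library reaches 108314, and in mt-Nd6 5 of 8 APOE2 points lie above every APOE3 point.

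Because all members are measured in the same libraries, their ratios within a library do not depend on how libraries were scaled. The mt-Nd4 share of the members' reads separated the groups: it lay between 17.0% and 19.8% in the APOE2 libraries and between 21.4% and 24.9% in the APOE3 libraries. Per read of mt-Cytb there were 0.538 to 0.595 reads of mt-Nd4 in APOE2 and 0.668 to 1.04 in APOE3. Per read of mt-Nd5 there were 4.90 to 6.87 reads of mt-Nd4 in APOE2 and 7.16 to 9.28 in APOE3. Per read of mt-Nd6 the APOE2 libraries held 59.5 to 131 and the APOE3 libraries 154 to 187. The fourth separated ratio was that of mt-Nd1 to mt-Nd4, from 1.04 to 1.24 with APOE2 hosts and from 0.786 to 1.03 with APOE3 hosts.

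Of the 21 ratios that 7 members allow, these 4 separated the groups, and all 4 contained mt-Nd4. Among 3240 ratios of nuclear complex I to V genes, 3.3% separated them. The 2 other ratios with mt-Nd4 overlapped: per read of mt-Co1 the APOE2 libraries held 6.04 to 8.32 and the APOE3 libraries 8.08 to 11.5, and the ratio of mt-Nd2 to mt-Nd4 ran from 1.04 to 1.50 with APOE2 hosts and from 0.614 to 1.12 with APOE3 hosts. None of the 15 ratios without mt-Nd4 separated the groups. The ratios were picked out after their values were seen and share mt-Nd4, so they are described with no test. Cells that are fewer and cells that hold less of an RNA cannot be told apart in these bulk libraries, and a ratio within 1 library can also differ where a minority of other cells contributes.

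**Figure D3:**
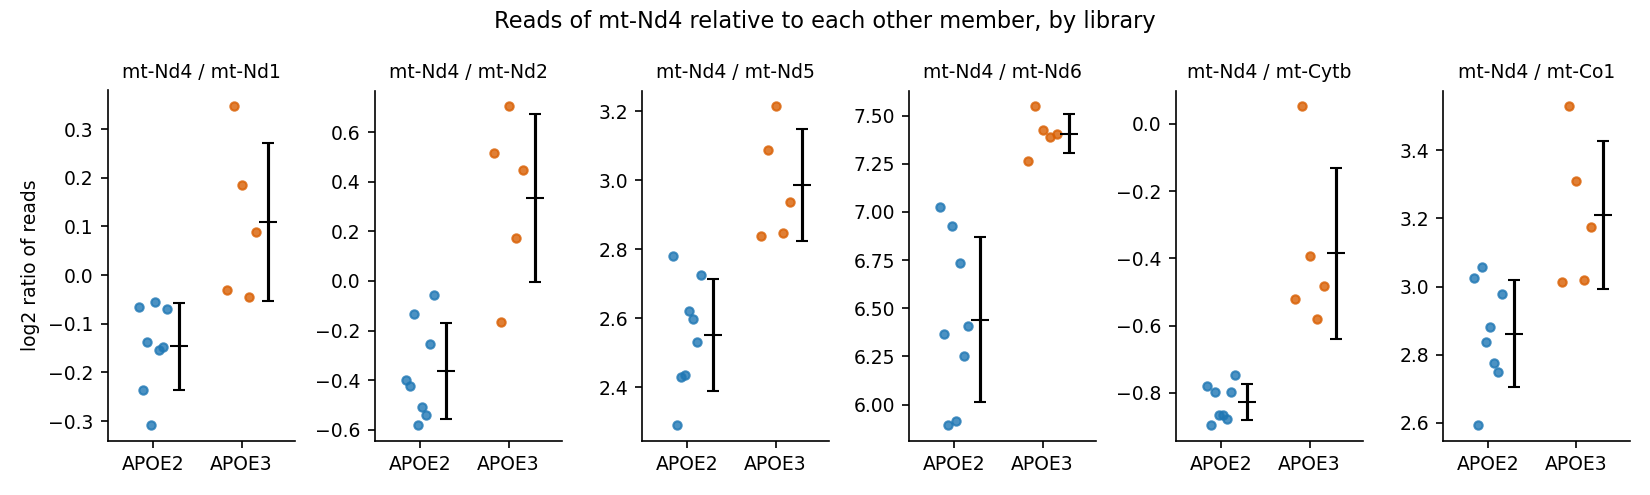
Log2 ratio of mt-Nd4 reads to the reads of each other member in the same library, 1 point per library, with mean and SD in black for APOE2 (n = 8) and APOE3 (n = 5). The groups separate against mt-Nd1, mt-Nd5, mt-Nd6 and mt-Cytb and overlap against mt-Nd2 and mt-Co1; each panel has its own vertical range.

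The shares of the other members overlapped between the groups. mt-Nd6 made up 0.140% to 0.320% of the members' reads in APOE2 and 0.127% to 0.147% in APOE3, with 6 of 8 APOE2 libraries above the APOE3 range. mt-Cytb made up 31.0% to 33.2% in APOE2 and 32.0% to 32.7% in 4 of 5 APOE3 libraries, but 23.6% in APOE3 replicate 2. In that library mt-Nd2 made up 27.5%, against 15.3% to 19.0% in the other APOE3 libraries and 20.5% to 25.4% in APOE2. APOE3 replicate 2 thus differs from its group in the make-up of the members, and it is also the library with the highest Gm42418 share.

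Together the 7 members took 3.69% ± 0.26 of all reads in APOE2 (SD, n = 8), from 3.21% to 4.09% with a median of 3.70%. In APOE3 they took 4.35% ± 0.64 (SD, n = 5), with 4.24%, 4.54%, 5.19%, 4.41% and 3.40% in replicates 1 to 5. Replicates 1 to 4 of APOE3 lay above every APOE2 library, and replicate 5 lay near the bottom of the APOE2 range. The nuclear genes of complexes I to V went the other way in the same libraries, with 5.61% ± 0.43 in APOE2 and 4.70% ± 0.26 in APOE3. There were thus 0.660 ± 0.063 member reads per nuclear complex I to V read in APOE2 and 0.933 ± 0.173 in APOE3, and the ranges of 0.579 to 0.775 and 0.693 to 1.14 overlapped. These sums were chosen with results of the members known and have no test.

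**Figure D4:**
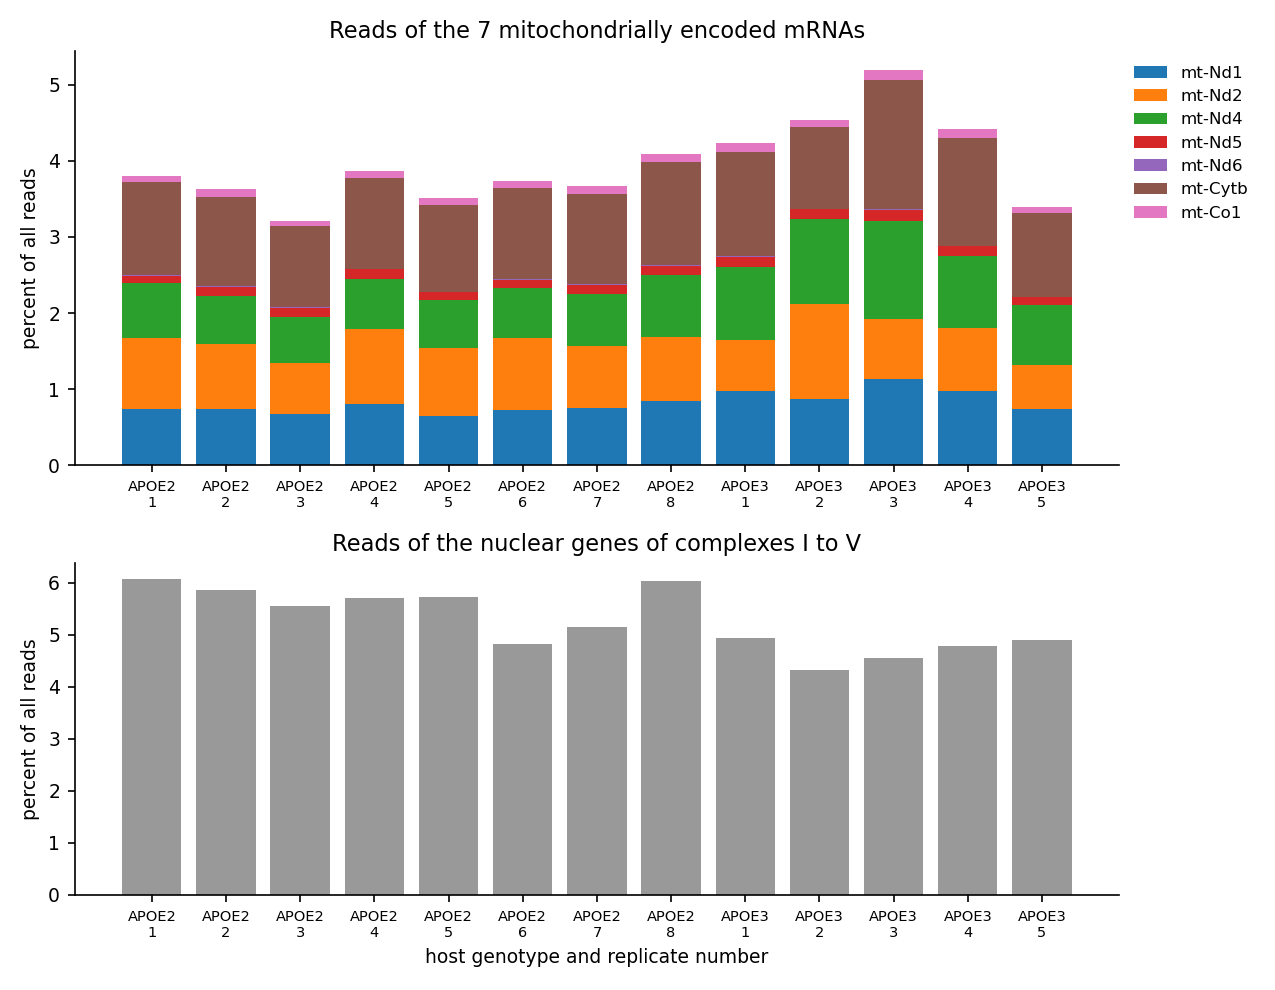
Percent of all reads per library taken by the 7 mitochondrially encoded mRNAs, stacked by gene (top), and by the 81 nuclear genes of complexes I to V (bottom), with libraries ordered by host genotype and replicate number. The stacks of APOE2 libraries reach 3.21% to 4.09% and those of APOE3 libraries 3.40% to 5.19%, with a small mt-Cytb layer and a large mt-Nd2 layer in APOE3 replicate 2.

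The remaining RNAs of the mitochondrial genome showed no called difference. mt-Rnr1, the small ribosomal RNA, differed by -0.03 (limma adjusted p = 0.949) and mt-Rnr2, the large one, by -0.17 (limma adjusted p = 0.582) on the log2 scale. Transfer RNAs have no long tail and are poorly represented in such libraries. Of 22 mitochondrial tRNA genes, 16 had values and 13 were tested, with 2 above and 11 below 0, none called, 3 at an unadjusted p under 0.05 and a median log2 difference of -0.25. The most negative was mt-Tl1, the tRNA that sits between mt-Rnr2 and mt-Nd1, at -1.10 (limma adjusted p = 0.111), with 52.4 ± 15.5 normalised counts in APOE2 (SD, n = 8) and 118 ± 49.7 in APOE3 (SD, n = 5). All RNAs of the mitochondrial genome took 4.65% ± 0.28 of reads in APOE2 and 5.44% ± 0.73 in APOE3.

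The nuclear partners of the members lay mostly on the opposite side of 0. Of 81 nuclear genes of complexes I to V, all tested, 66 had a positive and 15 a negative log2 difference, with a median of 0.24 beside -0.11 for the members. Over all genes tested, 50.1% lay above and 49.9% below 0, which is also the background for the counts of the lists that follow. limma called 8 of the 81 higher in APOE2 and 0 lower, against the 0.411% and 0.379% of all genes given above. At an unadjusted p under 0.05 in limma there were 35 of the 81, against 14.2% of all genes tested.

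Complex I, to which 5 of the 7 members belong, had 37 nuclear genes on the list, 28 above and 9 below 0. The 4 that rose were accessory subunits. Ndufb11 had 2575 ± 255 normalised counts in APOE2 (SD, n = 8) and 1860.4 ± 168 in APOE3 (SD, n = 5), a log2 difference of 0.47 (limma adjusted p = 0.0301), with all 8 APOE2 libraries above all 5 APOE3 libraries. Ndufa6 likewise separated fully and rose by 0.54 (limma adjusted p = 0.0327). Ndufb1-ps, a gene that the annotation names after a pseudogene, rose by 0.80 (limma adjusted p = 0.0301), and Ndufa1 rose by 0.89 (limma adjusted p = 0.0363). Of the 5 members in this complex, mt-Nd1, mt-Nd4 and mt-Nd5 had differences of opposite sign to these 4 subunits. mt-Nd2 and mt-Nd6 had the same sign as them, and none of the 5 was called.

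Complex III had 8 of 9 nuclear genes above 0, and Uqcrfs1, its iron-sulfur subunit and a partner of mt-Cytb, rose by 0.59 (limma adjusted p = 0.0334). Complex IV had 11 of 13 above 0, and Cox8a rose by 0.72 (limma adjusted p = 0.0241) and Cox7c by 0.72 (limma adjusted p = 0.0444). Both are small subunits around the core that mt-Co1 forms. Complex V had 17 of 18 above 0, and Usmg5, a small membrane subunit of ATP synthase, rose by 1.01 (limma adjusted p = 0.0367), with 14923 ± 3976 normalised counts in APOE2 (SD, n = 8) and 7721 ± 2798 in APOE3 (SD, n = 5). Complex II, which has no mitochondrially encoded subunit, had 2 of 4 above 0 and none called; the smallest p belonged to Sdhc at 0.38 (limma adjusted p = 0.190), followed by Sdhd at 0.45 (limma adjusted p = 0.697).

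The count of 8 nuclear calls rested on single libraries of both groups: it was 0 without APOE2 replicate 2, APOE2 replicate 5 or APOE3 replicate 3, 1 without APOE2 replicate 1, 2 without APOE2 replicate 7, APOE2 replicate 8 or APOE3 replicate 4, 4 without APOE2 replicate 3 or APOE3 replicate 2, and 15 without APOE2 replicate 6. It was also 0 without both APOE3 replicates 2 and 3, and when the level of Gm42418 or of lung epithelium markers entered the model as a covariate. Those 3 fits called 1, 2 and 2 of all genes. Their median log2 differences of the nuclear complex I to V genes were 0.20, 0.19 and 0.24, beside 0.24 in the main fit.

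**Figure D5:**
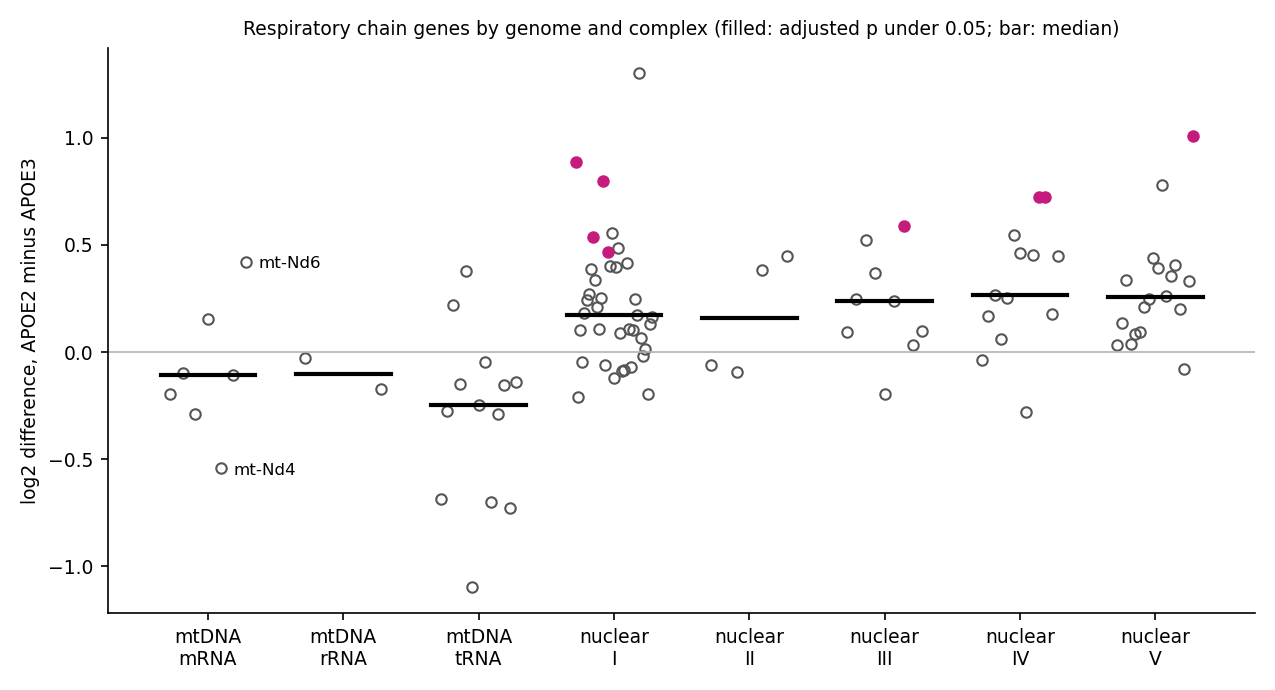
Log2 difference (APOE2 minus APOE3) of every tested RNA of the mitochondrial genome and of 81 nuclear genes, in columns by RNA class and respiratory complex; filled points passed at an adjusted p under 0.05 and bars are medians. The medians of the 3 mitochondrial columns lie below 0 and those of the 5 nuclear columns above it, all 8 filled points are nuclear, and mt-Nd4 and mt-Nd6 mark the ends of the members' range.

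Genes that act on mitochondrial DNA and RNA were mixed. The transcription list had 8 tested genes, 6 above 0 and none called. In it Tfam, the packaging and transcription factor of mitochondrial DNA, differed by 0.34 (limma adjusted p = 0.308) and the elongation factor Tefm by 0.61 (limma adjusted p = 0.434). For processing, polyadenylation and turnover of mitochondrial RNA, 9 of 18 genes lay above and 9 below 0, and none was called. Slirp, which with Lrpprc binds and stabilises mitochondrial mRNAs, was higher in all 8 APOE2 libraries than in any APOE3 library, but its log2 difference of 0.45 had a limma adjusted p of 0.0696. Tbrg4, an RNA-binding protein of the FASTK family also called FASTKD4, differed by -0.52 (limma adjusted p = 0.123).

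Replication and copy number genes had 9 of 11 above 0 and none called. The smallest p values belonged to the mitochondrial exonuclease Mgme1 at 0.89 (limma adjusted p = 0.0772) and the single-strand binding protein Ssbp1 at 0.74 (limma adjusted p = 0.221). The regulators of mitochondrial biogenesis had 4 of 11 above 0 and none called, with Yy1 at 0.24 (limma adjusted p = 0.368) and Pprc1 at -0.31 (limma adjusted p = 0.555). Of 31 genes that assemble the complexes around their mitochondrially encoded cores, 20 lay above 0 and none was called. Among them the complex I assembly factor Ndufaf3 differed by 0.59 (limma adjusted p = 0.158) and the copper chaperone Cox17 by 0.56 (limma adjusted p = 0.210).

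Across the 13 libraries, after each group's mean was subtracted, the members did not follow their joint mean equally. The Pearson correlation of a member with the mean of the 7, which contains it, was 0.89 for mt-Nd4, 0.85 for mt-Nd1, 0.80 for mt-Nd5, 0.76 for mt-Co1 and 0.72 for mt-Cytb. It was 0.51 for mt-Nd2 and 0.50 for mt-Nd6. The ribosomal RNAs of the same genome had 0.05 (mt-Rnr1) and 0.33 (mt-Rnr2), and Gm42418 had 0.49, close to mt-Nd2 and mt-Nd6. Among 8264 genes outside the mitochondrial genome and averaging 100 normalised counts or more, the 5 most like the members' mean were Cdc42bpa (0.94), Ids (0.88), Slc25a36 (0.86), Dna2 (0.86) and Dcp1b (0.85). None of these 5 differed between host genotypes by the limma test, with adjusted p values from 0.502 to 0.934. The 13 points share library depth and scaling, and these correlations are a description.

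Several markers of other lung cells were called between host genotypes, whereas no member was. The 15 lung epithelium markers summed to 99.2 to 499 CPM in APOE2 and 439 to 2600 in APOE3. Of 13 tested, 12 lay below and 1 above 0, and 6 fell in APOE2 by the limma test. These 6 were Sftpd, Sftpc, Sftpb, Slc34a2, Sftpa1 and Napsa, the genes of alveolar type II cells. Scgb3a2 lay above 0 at 1.99 (limma adjusted p = 0.608), with 0 counts in all APOE3 libraries. Scgb1a1 differed by -1.56 (limma adjusted p = 0.606). Its mean was higher in APOE2, at 157 ± 372 (SD, n = 8) against 29.5 ± 13.7 (SD, n = 5), with the highest APOE2 library at 1065. The 14 endothelial markers summed to 90.2 to 142 and 133 to 280 CPM, and Esam and Calcrl fell. The 13 fibroblast and smooth muscle markers summed to 44.5 to 127 and 67.4 to 359, and Acta2 and Mgp fell. The 10 heart muscle markers summed to 7.10 to 50.3 and 39.7 to 107, and Myl7 fell. The 21 leukocyte markers summed to 59.5 to 304 and 264 to 1499, and Lyz2 and Cd74 fell. Lyz2 alone had 1162 and 5288 normalised counts on average, and both genes are also known to be expressed by alveolar type II cells. Of 8 leukocyte markers tested, 7 lay below and 1 above 0. On the log2 scale, those that did not pass were Laptm5 at -1.05, Tyrobp at -0.95 and Cd68 at -0.41. The others were Fcer1g at -0.18, S100a8 at -0.04 and S100a9 at 0.50. The erythroid genes, 5 of 6 listed, summed to 4.80 to 22.0 and 2.84 to 26.8 CPM, and none was called.

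No marker was at 0 in all libraries, and Cd3e, Cd3d, Cd4, Adgre1 and Alas2 had a mean under 1 read. Among melanocyte markers 7 of 11 lay above 0 and none was called, with Rab27a at 0.47 (limma adjusted p = 0.0925) and Dct at 0.64 (limma adjusted p = 0.126). Of nuclear-retained and rRNA-like RNAs, Malat1 rose by 0.79 in APOE2 (limma adjusted p = 0.0367) and Gm42418 differed by -0.85 (limma adjusted p = 0.193). Of the 12 genes that respond to cell preparation, 10 lay below 0 and none was called, with Fosb at -0.90 (limma adjusted p = 0.0795) and Zfp36 at -1.11 (limma adjusted p = 0.134). The part of these cells and RNAs in the members' values was not tested, but with the lung epithelium markers in the model as a covariate the log2 difference of mt-Nd4 was -0.47 (limma adjusted p = 0.625), and that of mt-Nd6 was 0.10 (limma adjusted p = 0.954). In that model it was -0.22 for mt-Nd1, 0.33 for mt-Nd2, -0.10 for mt-Nd5, -0.02 for mt-Cytb and -0.07 for mt-Co1.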

How the data were processed

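RNA of sorted melanoma cells from lung metastases was measured in 13 libraries made with a QuantSeq forward kit, per the labels' protocols. The authors deposited normalised counts, a signal per gene. STAR 2.6.0, featureCounts, DESeq2 1.28.1 and mm10 are named in the submitters' processing notes. Strand setting and treatment of reads with several matches are not given in the sources used here. Divided by 1 step per library, 100% of values were whole reads within 0.01, and totals, shares and ratios use these reads. As the labels name no molecular identifiers, reads may repeat a molecule, and counting errors cover counting only.

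Of 22656 identifiers, 22649 were paired with symbols through GENCODE M21. Sequences and coordinates come from that annotation.

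APOE2 (n = 8) and APOE3 (n = 5) were compared with limma 3.58.1 (R 4.3.3, intensity trend, two-sided) on log2(normalised count + 1) over the 12403 genes with a mean of at least 10, with Benjamini-Hochberg adjustment and a threshold of 0.05. Adding 1 understates the change of low genes. edgeR 4.0.16 and DESeq2 1.42.0 on recovered reads were alternatives, and edgeR called 138 genes. The limma step was tested on simulated data. Other alternatives were pseudocounts, scalings, filters, variance models, covariates, the replicate number as a block, and each library left out.

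Members and gene lists were chosen with earlier results of these data known. Genes named are the members, Apoe and the 5 genes most like the members' mean. The called genes of each list (or the 2 with the smallest p) are also named. Mitochondrial tRNAs and erythroid genes are given as counts, beside mt-Tl1, which was singled out after its values were seen. So were Pearson values of Gm42418, the leukocyte markers that did not pass, and the lung epithelium genes Scgb1a1 and Scgb3a2.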

Additional observations from a re-analysis of the deposited data

Results flagged for a closer look

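A few values lay far from the other libraries of their group, by the ratio of the gap to the nearest library over the group's whole range. Of 36 such screens over members and their ratios, 4 passed the 95% limit, where chance gives about 1.8. mt-Nd5 had 8417.94 normalised counts in APOE3 replicate 5, and the nearest library had 10839.9. The other 3 all concern APOE3 replicate 2. It held 1.03666 reads of mt-Nd4 per read of mt-Cytb (nearest 0.762), 1.42522 reads of mt-Nd2 per read of mt-Nd1 (nearest 0.861) and 0.815206 reads of mt-Nd1 per read of mt-Cytb (nearest 0.712). The same library had the highest Gm42418 share, 3.74% of reads, and the part of that in these ratios was not tested.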

How the results depend on the processing

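Each member kept the sign of its log2 difference in all 28 alternatives, and the members' median ran from -0.19 to -0.06. mt-Nd4 alone crossed the threshold, so the count of members called was 1 with DESeq2, edgeR, equal totals, equal totals outside the mitochondrial genome, robust variance and a minimum mean of 50, and 0 to 1 with each library left out. Against 98 genes in all, DESeq2 called 312, edgeR 138, a pseudocount of 5 called 138, no filter 9, limma without the trend 0 (1599 at an unadjusted p under 0.05), the lung epithelium covariate 2, and leave-one-out fits 9 to 228 (9 without APOE3 replicate 3, 14 without APOE2 replicate 5, 15 without APOE2 replicate 2, 30 without APOE3 replicate 4, 49, 50 and 57 without APOE2 replicates 1, 7 and 8, 228 without APOE3 replicate 1). Equal totals gave 38 higher and 54 lower, against 51 and 47. Against 8 nuclear complex I to V genes, DESeq2 called 16, equal totals 5, equal totals outside the mitochondrial genome 2, no filter, no trend and the lung epithelium covariate 0 each, and leave-one-out fits 0 to 15. The following 2 alternatives were added after the data had been seen: the Gm42418 covariate left 2 genes and 0 nuclear ones, and leaving out APOE3 replicates 2 and 3 left 1 and 0. Differences near 0 changed sign: mt-Rnr1 was 0.044 with the Gm42418 covariate, 0.078 without APOE3 replicates 2 and 3, and -0.088 to 0.076 in leave-one-out fits; Apoe was -0.24 to 0.011 in leave-one-out fits; with the lung epithelium covariate Sdhd was -0.32 and Pprc1 0.059; Tefm was -0.063 without APOE3 replicates 2 and 3. The cause was not tested.

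Replicate numbers 1 to 5 occur in both groups, but same-numbered libraries did not deviate together (correlations from -0.06 to 0.01). The labels give only the number, and whether same-numbered libraries share a batch was not tested. With the replicate block 43 genes, 4 nuclear complex I to V genes and 0 members were called, and mt-Rnr1 was 0.025; no library correlated best with its own number.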
